A study of Rattus norvegicus with 9 samples.

Results

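Genes of 6 receptors through which blood-borne and platelet-released agonists act on the artery wall were followed across rat arteries: the serotonin receptors Htr2a, Htr2b and Htr1b, the thromboxane receptor Tbxa2r, the UDP receptor P2ry6 and the thrombin receptor F2r. The genes were chosen by symbol, and all 6 were found among the 30452 features of every library. RNA sequencing covered 3 groups of 3 libraries from offspring aged 3 to 5 months, and all dams ate a standard diet in pregnancy. The groups were mesenteric artery of offspring whose dams drank 20% sucrose water (MAH, replicates 1, 2 and 3), pulmonary artery of offspring whose dams drank ordinary water (PAC, replicates 1, 2 and 4), and mesenteric artery of offspring whose dams drank ordinary water (MAC, replicates 1, 2 and 3). MAH was set against MAC for the maternal sucrose, and PAC against MAC for the artery. Both comparisons use the same MAC libraries. The labels give no strain and do not say which libraries came from 1 animal or litter, or whether arteries were pooled. A library is a whole dissected vessel, so fewer cells of a type and less RNA per cell cannot be told apart.

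All 6 are membrane receptors that signal through G proteins. Htr2a, Htr2b, Tbxa2r, P2ry6 and F2r couple to Gq, which activates phospholipase C and raises calcium in smooth muscle. Htr1b couples to Gi, which lowers cyclic AMP. Platelets release serotonin and thromboxane and gather where thrombin is formed, and UDP leaves stressed cells. Htr2a and Tbxa2r mediate contraction of many systemic arteries, and Htr1b and Htr2b have been studied in pulmonary artery for their part in pulmonary hypertension. F2r is opened by thrombin, which cuts its outer end and leaves a tethered ligand.

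Total counts were 10388231 to 15420546 per library, so 3 counts, taken as the floor, equalled 0.194 to 0.286 CPM (counts scaled to a common library size). Counts of the mitochondrial genome were 12.8% to 27.1% of the total. The 12 smooth muscle markers, led by Acta2, were detected in every library, with summed levels of 22478 to 35576 CPM in MAH, 4201 to 26371 CPM in PAC and 14463 to 50386 CPM in MAC. PAC replicate 4 was the lowest library for 12 of these 12 genes and the highest for 8 of 8 lymphocyte markers and 7 of 7 lung epithelial markers. Its lymphocyte sum was 1500 CPM, against 3.93 to 12.9 CPM in the other libraries, and its lung epithelial sum was 741 CPM. PAC replicate 2 had a cardiac muscle sum of 22041 CPM, against 1911 CPM in PAC replicate 4, 1031 CPM in PAC replicate 1 and 4.58 to 31.1 CPM in the mesenteric libraries. Of the sum in PAC replicate 1, 1022 CPM came from Actc1 alone. The next highest cardiac marker there was Myh6 at 2.65 CPM, against 465 CPM in PAC replicate 4. MAC replicate 2 had the lowest mesenteric smooth muscle sum and the highest sums of fibroblast (13171 CPM) and platelet (147 CPM) markers. For the receptor genes, results that rest on these libraries are given with and without them. Fold changes of pathway genes and list medians are given with all libraries only.

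Htr2a, the serotonin receptor that contracts most arteries, was low in pulmonary artery. Its levels were 2.73, 2.58 and 0.710 CPM in PAC replicates 1, 2 and 4, against 16.5, 3.87 and 31.4 CPM in MAC replicates 1, 2 and 3. In MAH replicates 1, 2 and 3 they were 11.0, 18.2 and 15.7 CPM. Every pulmonary library lay below every mesenteric one of either maternal diet, and MAC replicate 2 came closest to the pulmonary range. Behind these levels stood 33, 36 and 11 counts in PAC and 245, 45 and 336 counts in MAC. The fitted log2 fold change of PAC over MAC was -3.10 (SE 0.873, 95% interval -5.19 to -1.01), which is 8.59-fold lower. The unadjusted p of edgeR's quasi-likelihood test was 0.0103 and the Benjamini-Hochberg adjusted p was 0.437, so the difference did not pass. DESeq2 gave the same fold change, -3.10, with an adjusted p of 0.0143, past the 0.05 threshold. DESeq2 called 3.08% of the genes it tested in that comparison and 1.51% as lower. The direction was the same in all 18 settings and left-out libraries tried, with values of -3.57 to -1.63 and adjusted p-values of 0.0143 to 0.965, of which the DESeq2 value was the 1 that passed. Among the libraries that hold other tissue, leaving out PAC replicate 4 gave -2.69, and leaving out PAC replicate 2 gave -3.33. With PAC replicate 1 as the only pulmonary library it was -2.67, and without MAC replicate 3 it was -2.34. The mean log2 level of the smooth muscle list as a covariate gave -2.13, with an adjusted p of 0.338.

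Between the maternal diets Htr2a did not separate. It averaged 14.9 ± 3.69 CPM in MAH and 17.2 ± 13.8 CPM in MAC (SD, n = 3 each). The log2 fold change was -0.19 (SE 0.638, 95% interval -1.69 to 1.32, edgeR adjusted p 1.00), and the 3 MAH values lay inside the MAC range. The sign turned to 0.57 without MAC replicate 3 and was 0.0064 without MAH replicate 1. The order of the group means was MAC, MAH, PAC, with overlap between MAC and MAH and none between MAH and PAC. How many of all genes lay apart between MAH and PAC was not counted.

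**Figure D1:**
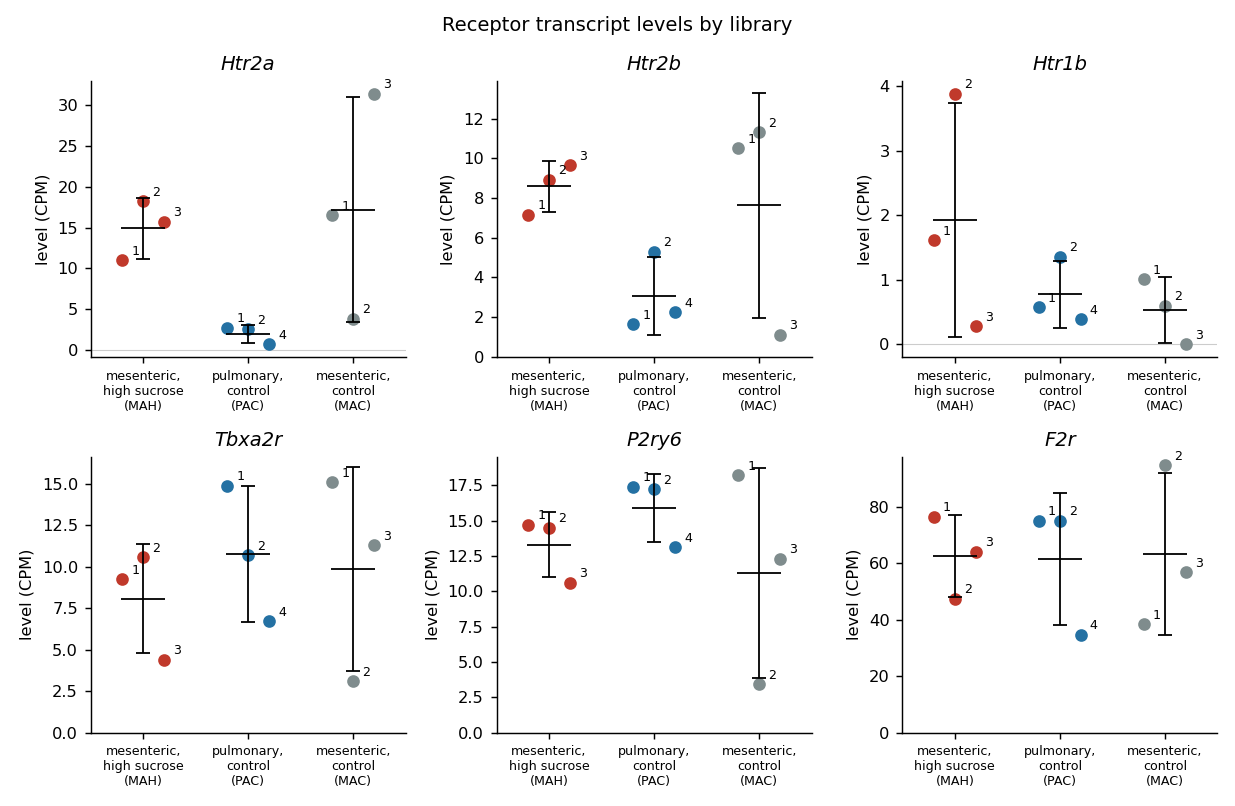
Levels of the 6 receptor genes in CPM (y axes, each gene on its own linear scale) in MAH, PAC and MAC libraries; points are libraries with their replicate numbers, horizontal bars are means and vertical bars the SD of 3 libraries. Htr2a lies at 0.710 to 2.73 CPM in PAC, below the 11.0 to 18.2 CPM of MAH and the 3.87 to 31.4 CPM of MAC. Htr2b in PAC, at 1.66 to 5.30 CPM, lies below the 7.17 to 9.65 CPM of MAH and overlaps MAC. The groups of the other genes overlap.

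Htr2b, a serotonin receptor of endothelium, fibroblasts and smooth muscle, averaged 3.07 ± 1.95 CPM in PAC and 7.63 ± 5.65 CPM in MAC (SD, n = 3 each). The libraries held 1.66, 5.30 and 2.26 CPM in PAC replicates 1, 2 and 4, against 10.5, 11.3 and 1.12 CPM in MAC replicates 1, 2 and 3. The groups overlapped because of MAC replicate 3, which had 12 counts and the lowest level of all 9 libraries. PAC over MAC gave a log2 fold change of -1.32 (SE 0.885, 95% interval -3.44 to 0.799, edgeR adjusted p 0.693). Without MAC replicate 3 it was -1.84 and without PAC replicate 4 it was -1.13. In MAH the level was 7.17, 8.92 and 9.65 CPM, a 1.34-fold span, where MAC spanned 10.1-fold. Every MAH library lay above every PAC library, and these groups differ in both artery and maternal diet. The share of all genes with such a separation was not counted. For MAH over MAC it was 0.17 (SE 0.703, 95% interval -1.49 to 1.83, edgeR adjusted p 1.00) and turned to -0.34 without MAC replicate 3.

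MAC replicate 3 thus held the highest Htr2a and the lowest Htr2b level of its group. MAC replicate 2 held the lowest Htr2a and the highest Htr2b level. The 2 genes encode receptors for the same agonist, and their order by CPM across the 3 MAC libraries was reversed. For Htr2b that order rests in part on 11.3 against 10.5 CPM in MAC replicates 2 and 1. In MAH both genes were lowest in replicate 1.

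Htr1b, the Gi-coupled serotonin receptor, was close to the detection floor. Its counts were 21, 41 and 3 in MAH, 7, 19 and 6 in PAC, and 15, 7 and 0 in MAC, in replicate order. The levels were 1.62, 3.89 and 0.286 CPM in MAH, against 1.01, 0.602 and 0 CPM in MAC. MAH replicate 3 lay between the MAC libraries, so the groups overlapped. Summed over libraries, the depth-scaled ratio of MAH to MAC was 3.23 (95% interval 1.97 to 5.51), an interval that covers counting error only, and MAH replicate 2 held 41 of the 65 MAH counts. The spread between libraries was larger: the fitted log2 fold change was 1.79 (SE 1.14, 95% interval -0.901 to 4.47, edgeR adjusted p 1.00), and it was 0.81 without MAH replicate 2 and 2.60 without MAC replicate 1. Between PAC and MAC Htr1b did not pass the filter on low counts. Without that filter its log2 fold change was 0.50 (SE 1.21, edgeR adjusted p 0.899). PAC had 0.580, 1.36 and 0.387 CPM, and the summed ratio of PAC to MAC was 1.30 (95% counting interval 0.734 to 2.35).

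Tbxa2r, the receptor for thromboxane and its prostaglandin endoperoxide precursor, averaged 10.8 ± 4.10 CPM in PAC and 9.85 ± 6.15 CPM in MAC (SD, n = 3 each). Its levels were 14.9, 10.7 and 6.71 CPM in PAC replicates 1, 2 and 4, against 15.1, 3.10 and 11.3 CPM in MAC replicates 1, 2 and 3. Only MAC replicate 2, with 36 counts, lay below the pulmonary range. PAC over MAC had a log2 fold change of 0.14 (SE 0.607, 95% interval -1.31 to 1.59, edgeR adjusted p 0.954), and it was -0.29 without MAC replicate 2, -0.16 without PAC replicate 1 and 0.38 without PAC replicate 4. MAH held 9.25, 10.6 and 4.39 CPM, inside the MAC range. MAH over MAC had one of -0.27 (SE 0.581, 95% interval -1.64 to 1.10, edgeR adjusted p 1.00), with 0.18 without MAC replicate 1 and 0.011 without MAH replicate 3.

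P2ry6, the receptor for UDP, averaged 15.9 ± 2.42 CPM in PAC and 11.3 ± 7.45 CPM in MAC (SD, n = 3 each). Its levels were 17.4, 17.2 and 13.1 CPM in PAC replicates 1, 2 and 4, against 18.2, 3.44 and 12.3 CPM in MAC replicates 1, 2 and 3. The pulmonary libraries spanned 1.33-fold and the MAC libraries 5.30-fold, and the highest library of all was MAC replicate 1. The log2 fold change of PAC over MAC was 0.50 (SE 0.564, 95% interval -0.852 to 1.85, edgeR adjusted p 0.811) and was 0.066 without MAC replicate 2 and 1.00 without MAC replicate 1. MAH had 14.7, 14.5 and 10.6 CPM, with a log2 fold change over MAC of 0.24 (SE 0.527, 95% interval -1.0 to 1.48, edgeR adjusted p 1.00) that was -0.19 without MAC replicate 2. The group order of P2ry6 was PAC, MAH, MAC and that of Tbxa2r was PAC, MAC, MAH, and in both orders every neighbouring pair overlapped.

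F2r, the main thrombin receptor of the vessel wall, had the steadiest group means. It averaged 62.7 ± 14.5 CPM in MAH, 61.5 ± 23.3 CPM in PAC and 63.3 ± 28.6 CPM in MAC (SD, n = 3 each). The libraries nevertheless ranged over 76.5, 47.5 and 64.0 CPM in MAH, 75.0, 75.0 and 34.7 CPM in PAC and 38.5, 94.7 and 56.8 CPM in MAC, in replicate order. The highest library was MAC replicate 2 and the lowest PAC replicate 4. The log2 fold change was -0.015 for MAH over MAC (SE 0.354, 95% interval -0.850 to 0.820, edgeR adjusted p 1.00). It was -0.056 for PAC over MAC (SE 0.441, 95% interval -1.11 to 0.999, edgeR adjusted p 0.974). Without MAC replicate 2 the values were 0.42 for MAH and 0.37 for PAC, and without PAC replicate 4 the pulmonary value was 0.24.

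**Figure D2:**
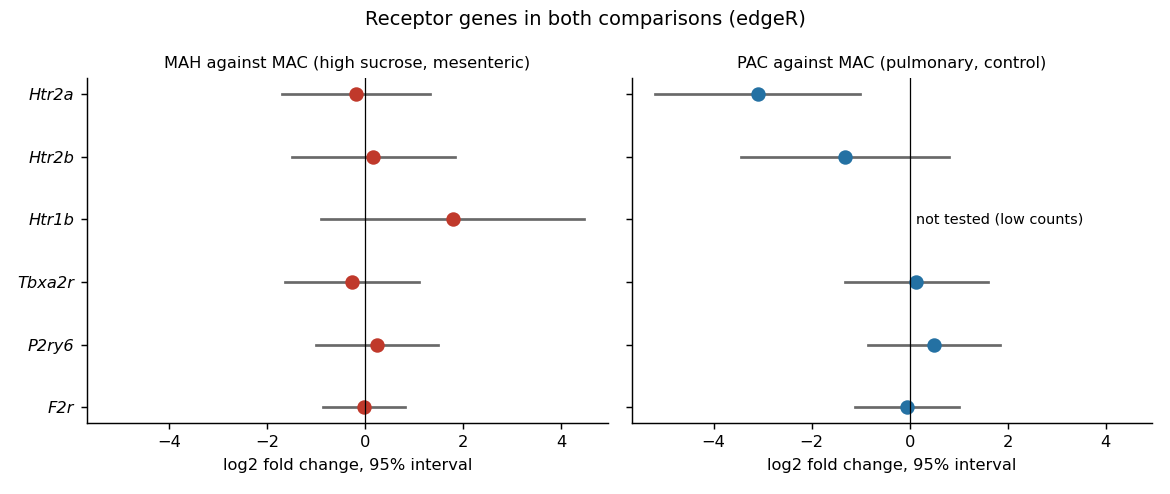
Log2 fold changes (x axes) of the receptor genes (rows) for MAH over MAC and PAC over MAC from edgeR's quasi-likelihood fit, with 95% intervals as horizontal bars and a vertical line at 0. The interval of Htr2a in PAC over MAC, -5.19 to -1.01, is the only one that excludes 0, and its adjusted p is 0.437.

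No receptor gene passed an adjusted p of 0.05 with edgeR in either comparison. For MAH over MAC, 0 of 6 tested members and 0 of 13995 genes (0%) passed. At an unadjusted p under 0.05, 0 of the 6 and 1.99% of all genes were found, and for 0 of the 6 the MAH and MAC libraries did not overlap, against 6.10% of all genes. The median log2 fold change of the members was 0.077 and that of all genes 0.0024. For PAC over MAC, 0 of 5 tested members and 2 of 14315 genes (0.0140%) passed. Htr2a was the 1 member with an unadjusted p under 0.05, where 4.30% of all genes were lower at that level. It was also the 1 member with no overlap between groups, where 7.57% of all genes were lower with no overlap and 14.1% did not overlap in either direction. The median of the 5 members was -0.056 and that of all genes 0.058.

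In MAC replicate 2 Tbxa2r was at the lowest and F2r at the highest level of the 9 libraries, and the promoters of these 2 genes are shown to compare their makeup. RefSeq promoter windows on build GRCr8, which is not the rn7 build of the counts, were found for 4 of the 6 genes, Htr2b, Htr1b, Tbxa2r and F2r. Each line gives the 250 bases before the gene start, 5′ to 3′ on the gene's strand. Capitals mark a match to the MCAT motif CATTCC in Tbxa2r, and to the GC box GGGCGG or the AP-1 motif TGANTCA in F2r, on either strand. Tbxa2r lies on the minus strand at chr7:9038906-9039155 and F2r on the minus strand at chr2:28620580-28620829.
Tbxa2r: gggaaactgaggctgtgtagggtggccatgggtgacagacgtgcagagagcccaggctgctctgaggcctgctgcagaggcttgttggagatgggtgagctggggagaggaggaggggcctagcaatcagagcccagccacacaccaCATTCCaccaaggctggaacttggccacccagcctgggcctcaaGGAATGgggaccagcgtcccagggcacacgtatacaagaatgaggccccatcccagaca
F2r: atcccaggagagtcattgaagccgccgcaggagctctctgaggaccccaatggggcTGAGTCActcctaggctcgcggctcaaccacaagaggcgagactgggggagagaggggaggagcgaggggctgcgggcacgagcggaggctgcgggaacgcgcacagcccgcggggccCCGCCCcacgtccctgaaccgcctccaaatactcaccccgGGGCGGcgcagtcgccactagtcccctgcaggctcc
The GC content of the 300 bases around the start was 61.3% for Tbxa2r and 69.7% for F2r, against a median of 51.7% over all promoters. CATTCC was matched with its first base 103 and 59 bases before the Tbxa2r start and once within the 50 bases after it, and 14.2% of 33469 promoters hold it. F2r had GGGCGG at 76 and 36 bases and TGANTCA at 194 bases before its start, motifs that 33.1% and 7.33% of promoters hold. The TATA box TATAAA (14.2% of promoters) and the CArG box (1.64%) were matched in none of the 4 windows, Htr1b held 1 CATTCC and Htr2b held none of the 5 motifs. The motif matches do not overlap each other and are a description of these letters, not of binding.

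Tbxa2r and P2ry6 followed each other across libraries more closely than any other pair of the 6 genes. Centred log2 levels of this pair differed by 0.365 (root mean square over 9 libraries), against 0.977 to 2.08 for the other 14 pairs. The widest pair was Htr2a and Htr1b. The ratio of P2ry6 to Tbxa2r counts was 1.58, 1.37 and 2.41 in MAH, 1.17, 1.60 and 1.95 in PAC and 1.20, 1.11 and 1.09 in MAC. In MAC replicate 2, where both genes were lowest, the ratio was thus like that of the other MAC libraries. Htr2a behaved otherwise. Its counts were 0.157, 0.150 and 0.0542 of those of P2ry6 in PAC replicates 1, 2 and 4, against 0.904, 1.12 and 2.55 of them in MAC replicates 1, 2 and 3 and 0.747, 1.25 and 1.48 in MAH. Its ratio to Tbxa2r was 0.183, 0.240 and 0.106 in PAC, against 1.09, 1.25 and 2.78 in MAC and 1.18, 1.71 and 3.57 in MAH. By these ratios MAC replicate 2 lay among the other mesenteric libraries. The gene pairs were chosen after their values were seen, and the ratios were not tested.

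As a share of the summed counts of the 6 genes, Htr2a made up 2.44%, 2.30% and 1.23% in PAC replicates 1, 2 and 4, against 16.5%, 3.31% and 27.8% in MAC replicates 1, 2 and 3. The exact 95% binomial intervals were 1.68% to 3.40%, 1.62% to 3.17% and 0.614% to 2.19% in PAC, and that of MAC replicate 2 was 2.43% to 4.41%, so this library and PAC replicates 1 and 2 could not be separated by counting error alone. In MAH the Htr2a share was 9.11%, 17.6% and 15.0%. The mean share was 1.99% ± 0.661 in PAC and 15.9% ± 12.3 in MAC (SD, n = 3 each), a difference of -13.9 percentage points that was -7.92 without MAC replicate 3 and -20.2 without MAC replicate 2. The 2-sided exact permutation test gave p = 0.10, the smallest that 3 against 3 libraries allow, and 0.960 after Benjamini-Hochberg adjustment over 12 tests. F2r took the largest part of the counts in every library, 45.8% to 63.7% in MAH, 59.9% to 66.9% in PAC and 38.5% to 80.9% in MAC. P2ry6 made up 15.5%, 15.3% and 22.7% in PAC, against 18.3%, 2.94% and 10.9% in MAC, which overlap. Counts were not divided by transcript length, so the shares do not rank the receptors by number of transcripts.

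**Figure D3:**
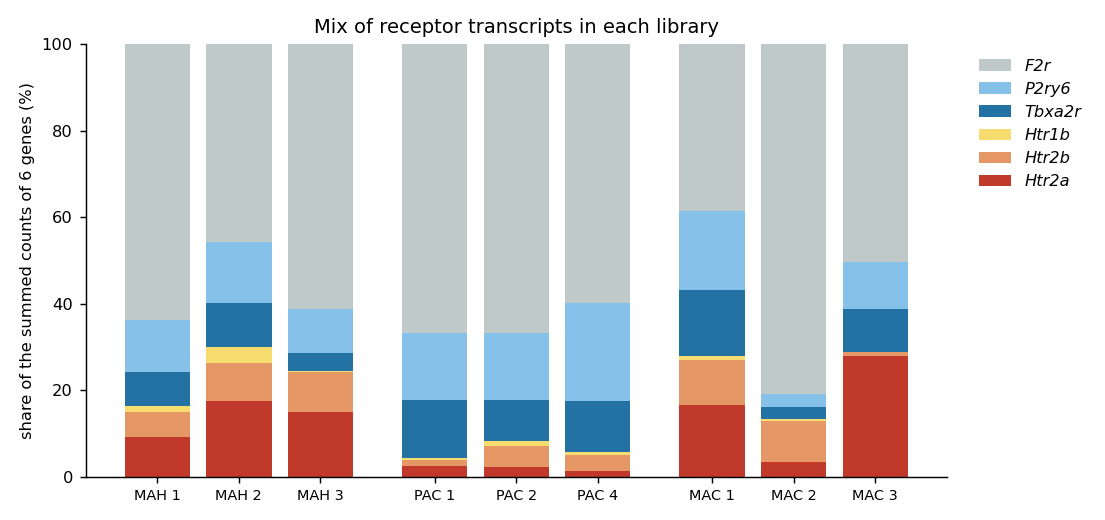
Share of each receptor gene in the summed counts of the 6 genes (y axis, percent) in each MAH, PAC and MAC library (x axis); each stacked bar adds to the whole. The Htr2a part is 1.23% to 2.44% in PAC, 9.11% to 17.6% in MAH and 3.31% to 27.8% in MAC.

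Since the smooth muscle content of the libraries differed, levels were also set against the mean log2 CPM of the 12 smooth muscle genes. On this scale Htr2a was lower in every PAC library than in every MAC library, and Tbxa2r and P2ry6 were higher. Htr2a stood at -8.46, -8.76 and -7.64 in PAC replicates 1, 2 and 4, against -6.91, -7.19 and -5.62 in MAC replicates 1, 2 and 3, and at -6.89, -6.55 and -5.95 in MAH. The mean difference of PAC minus MAC was -1.71 on the log2 scale, with group SDs of 0.579 and 0.841 (n = 3 each). Leaving out single libraries gave -2.03, without PAC replicate 4, to -1.23. Tbxa2r stood at -6.07, -6.76 and -4.66 in PAC, against -7.03, -7.50 and -7.08 in MAC, a difference of 1.37 (0.783, without PAC replicate 4, to 1.84 with single libraries left out). P2ry6 stood at -5.85, -6.09 and -3.71 in PAC, against -6.76, -7.36 and -6.95 in MAC, a difference of 1.81 (1.05, without PAC replicate 4, to 2.24). Each of these 3 differences had an exact permutation p of 0.10, the smallest possible, and an adjusted p of 0.400 over 12 tests. PAC replicate 4 was highest for Tbxa2r and P2ry6, and within PAC it was highest on this scale for every receptor gene. Its smooth muscle sum was the lowest. Of all 14315 genes, 5.73% were higher and 0.307% lower with no overlap on this scale. Tbxa2r and P2ry6 were 2 of the 5 tested members on the higher side, and Htr2a was the 1 on the lower side. The separation of Tbxa2r and P2ry6 depends on the smooth muscle genes used. Relative to Myh11 alone neither gene overlapped between the arteries. Relative to Acta2 alone both genes overlap. Acta2 stood at 6084 and 6792 CPM in PAC replicates 1 and 2, against 1025 CPM in MAC replicate 2.

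The other receptors overlapped on the scale relative to smooth muscle. The differences of PAC minus MAC were 0.14 for Htr2b, 1.75 for Htr1b and 1.01 for F2r, with exact permutation p-values of 1.00, 0.300 and 0.400. With single libraries left out, Htr1b ran from 0.72 without MAC replicate 3 to 2.55 without MAC replicate 2. F2r ran from 0.35 without MAC replicate 1 to 1.88 without MAC replicate 2, and was 0.50 without PAC replicate 4. For MAH minus MAC the 6 differences ran from -0.20 for Tbxa2r to 1.40 for Htr1b, and the smallest exact permutation p was 0.20, for P2ry6 at 0.41. With Myh11 alone in place of the list, the MAH and MAC libraries of P2ry6 did not overlap, with a mean 0.58 higher in MAH (exact permutation p 0.10, adjusted p 0.300), and 0.436% of all genes were higher with no overlap on that scale. By CPM and relative to the list the MAH and MAC libraries of P2ry6 overlapped. Relative to the list, 0.329% of all genes were higher and 0.579% lower in MAH with no overlap.

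**Figure D4:**
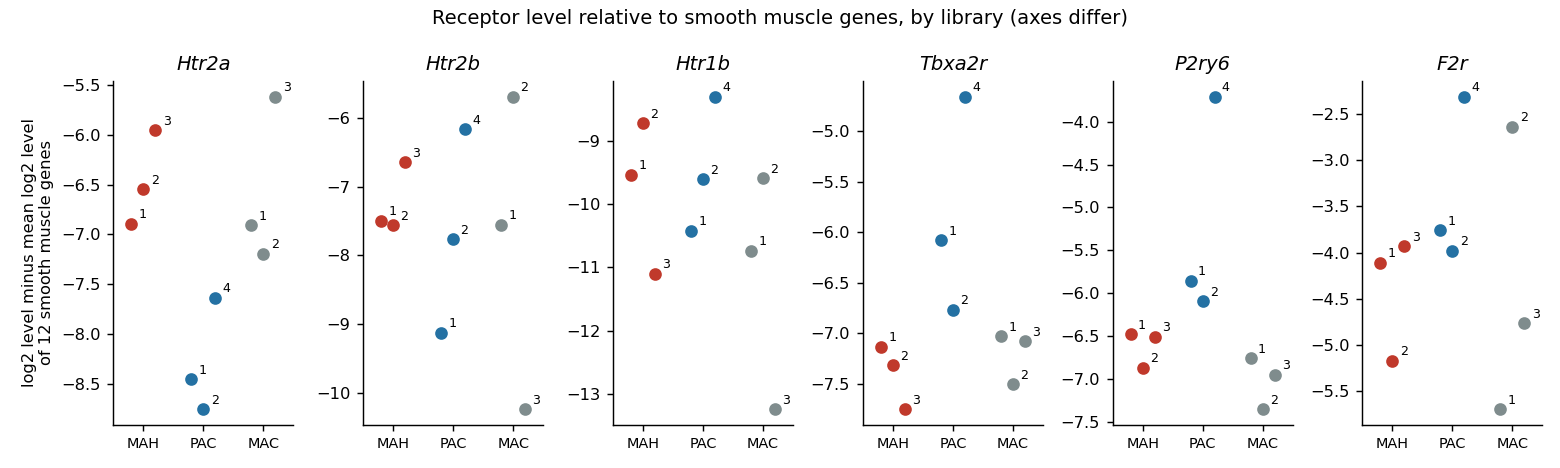
Log2 level of each receptor gene relative to the mean of 12 smooth muscle genes (y axes, one scale per gene) in MAH, PAC and MAC, where points are libraries with their replicate numbers. Htr2a lies at -8.76 to -7.64 in PAC and -7.19 to -5.62 in MAC, whereas Tbxa2r and P2ry6 lie higher in each PAC library than in MAC.

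The serotonin pathway around the receptors comprised 19 further genes, of which 5 passed the filter on low counts in each comparison and 0 passed the test in either direction. Their median log2 fold change was -0.11 for MAH over MAC and -0.45 for PAC over MAC. Slc6a4, the serotonin transporter, had 73.4, 52.1 and 4.78 CPM in PAC replicates 1, 2 and 4, against 6.19, 4.22 and 19.4 CPM in MAC. PAC replicate 4 made the groups overlap, and the log2 fold change was 2.12 (SE 1.00, edgeR adjusted p 0.609). Ddc, which makes serotonin and dopamine from their amino acid precursors, had 1.57, 47.2 and 2.39 CPM in PAC, so its log2 fold change of 3.11 (SE 1.5, edgeR adjusted p 0.609) came mainly from PAC replicate 2, the library with the highest cardiac markers. Maob, which degrades amines, had 8.37, 10.2 and 6.13 CPM in PAC, against 11.7, 10.8 and 17.1 CPM in MAC (log2 fold change -0.68, SE 0.35, edgeR adjusted p 0.621). In MAH over MAC the same 3 genes had log2 fold changes of -0.92, -0.34 and -0.11 for Ddc, Slc6a4 and Maob, each with an adjusted p of 1.00. Htr1a and Htr5a had no counts in any library, which at the floor allows up to 0.286 CPM in 1 library. Htr7 had 50 counts in PAC and 19 in MAC, a depth-scaled ratio of 2.36 (95% counting interval 1.36 to 4.23), with 2.52 CPM in PAC replicate 4 and 0.358 to 0.497 CPM in the other PAC libraries.

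Of 13 thromboxane and prostanoid genes, 10 were found and 9 tested, and 0 passed in either comparison. The median log2 fold change was -0.067 for MAH and -0.025 for PAC. Ptgir, the receptor for prostacyclin that opposes thromboxane, had 1.66, 2.72 and 3.16 CPM in PAC, against 5.45, 10.6 and 5.88 CPM in MAC (log2 fold change -1.54, SE 0.493, edgeR adjusted p 0.493). Ptgs2, the inducible cyclooxygenase, had 64.6, 7.09 and 13.2 CPM in PAC, against 86.2, 121 and 256 CPM in MAC (log2 fold change -2.45, SE 0.896, edgeR adjusted p 0.540). Ptgs1, the constitutive cyclooxygenase, had 145, 168 and 31.7 CPM in PAC, against 61.5, 13.4 and 18.2 CPM in MAC, which overlap (log2 fold change 1.89, SE 0.786, edgeR adjusted p 0.584). The libraries of Ptgir and Ptgs2 did not overlap between the arteries, both being lower in PAC, so that 2 of the 9 tested genes were lower with no overlap, against 7.57% of all genes. In MAH over MAC the 3 genes with the smallest p were Ptger1, Ptger4 and Pla2g4a, at 0.24, -0.38 and -0.28, each with an adjusted p of 1.00.

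Of 12 nucleotide receptors and nucleotide-degrading enzymes, 11 were found and 10 tested, and 0 passed in either comparison. In PAC over MAC 8 of the 10 were above 0, with a median log2 fold change of 0.73, where 54.5% of all genes were above 0. In the same comparison 8 of 9 macrophage markers (median 0.38) and 6 of 6 tested lymphocyte markers (median 5.27) were above 0, and their part in the shift of the list was not tested. P2ry13, a receptor for ADP, had 6.46, 3.37 and 10.5 CPM in PAC, against 0.942, 2.50 and 0.934 CPM in MAC (log2 fold change 2.22, SE 0.674, edgeR adjusted p 0.465). P2ry1, another ADP receptor, was lower, with 4.56, 4.73 and 3.29 CPM in PAC, against 8.01, 7.83 and 15.5 CPM in MAC (log2 fold change -1.32, SE 0.429, edgeR adjusted p 0.495). P2ry2, which binds ATP and UTP, had 35.4, 63.0 and 18.1 CPM in PAC, against 20.0, 8.95 and 19.9 CPM in MAC (log2 fold change 1.25, SE 0.516, edgeR adjusted p 0.580). P2ry13 and P2ry1 lay apart in opposite directions, and P2ry2 overlapped. Of all genes, 6.50% were higher in PAC with no overlap. In MAH over MAC, P2ry13, P2ry10 and P2ry2 had log2 fold changes of 0.79, -1.07 and 0.29, each with an adjusted p of 1.00, and the list's median was -0.035.

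All 11 thrombin receptors and regulators were found, 8 were tested and 0 passed. In PAC over MAC 7 of the 8 were below 0, with a median log2 fold change of -0.92, where 45.5% of all genes were below 0. In the same comparison 9 of 9 blood endothelium markers were below 0, with a median of -1.13. So were 7 of 7 fibroblast markers (median -0.55) and 10 of 12 smooth muscle markers (median -0.81). Of the macrophage markers, 8 of 9 were above 0. The parts of these cell types in the shift of the list, which holds the endothelial genes Thbd and Procr, were not tested. F3, tissue factor, which starts the reactions that form thrombin, had 229, 245 and 152 CPM in PAC, against 439, 595 and 544 CPM in MAC. Its groups did not overlap, and it had the smallest p of the list (log2 fold change -1.34, SE 0.321, unadjusted p 0.00456, edgeR adjusted p 0.366). Procr, the endothelial protein C receptor, had a log2 fold change of -1.40 (SE 0.884, edgeR adjusted p 0.681). In MAH over MAC the median was -0.16, and F2rl2 and F2rl1 had log2 fold changes of -0.72 and 0.65, each with an adjusted p of 1.00.

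**Figure D5:**
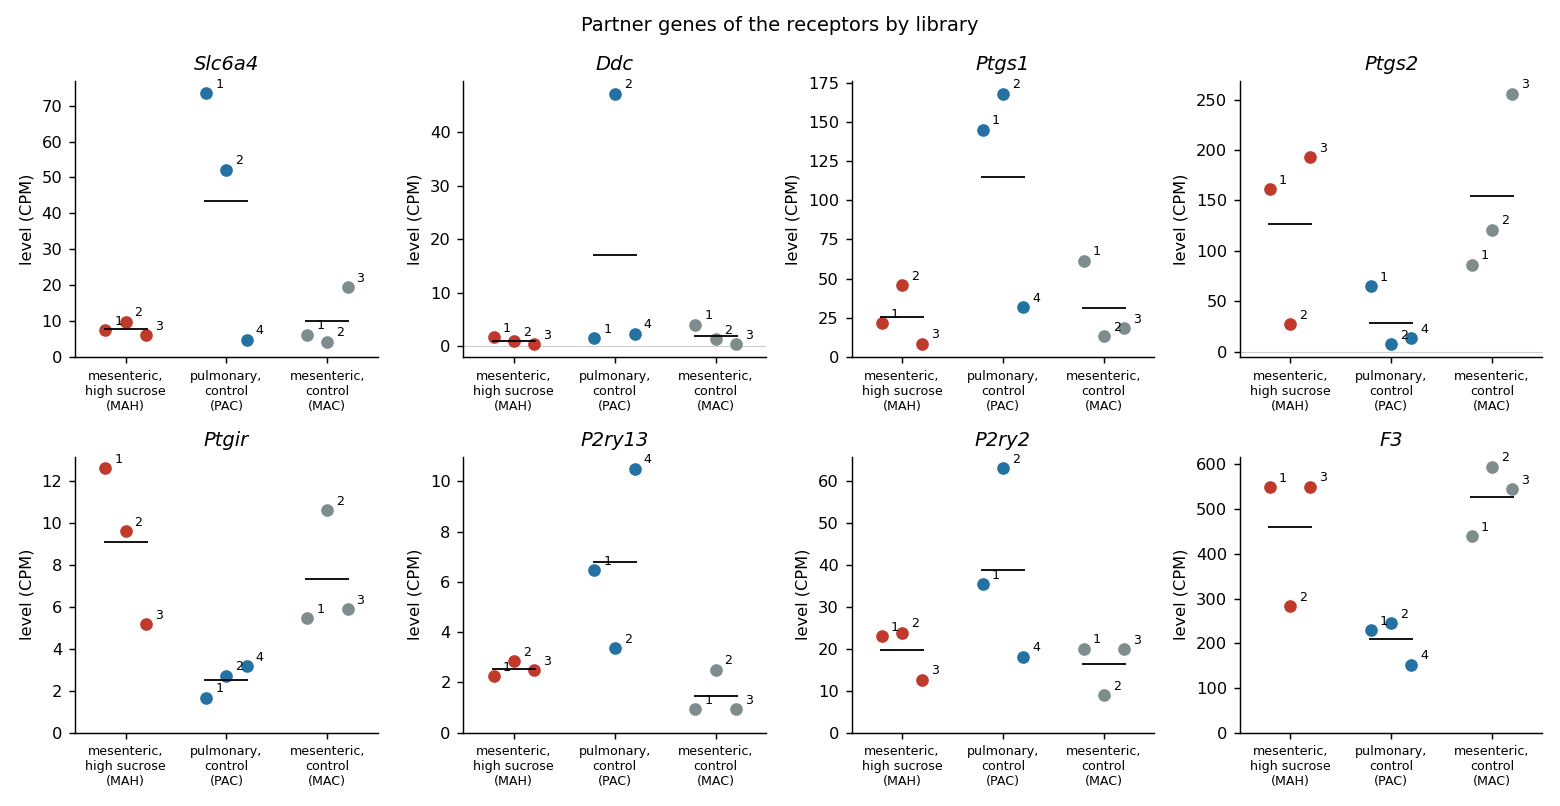
Levels in CPM (y axes, each gene on its own linear scale) of 8 genes of serotonin, prostanoid, nucleotide and thrombin handling in MAH, PAC and MAC; points are libraries with their replicate numbers and horizontal bars are group means. F3 lies at 152 to 245 CPM in PAC and 439 to 595 CPM in MAC, and Slc6a4 at 4.78 to 73.4 CPM in PAC and 4.22 to 19.4 CPM in MAC.

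Downstream of the receptors, 23 of 23 genes of G protein signalling and 10 of 10 genes of receptor desensitisation were tested, and 0 passed in either comparison. The median log2 fold change of the signalling genes was 0.12 for MAH and -0.32 for PAC. Gnai1, an inhibitory G protein subunit of the kind that Htr1b uses, had 28.0, 21.6 and 8.20 CPM in PAC, against 56.7, 30.7 and 98.4 CPM in MAC (log2 fold change -1.69, SE 0.573, edgeR adjusted p 0.515). Prkca, the protein kinase C activated below Gq, had 13.3, 16.3 and 15.2 CPM in PAC, against 7.07, 11.8 and 6.91 CPM in MAC (log2 fold change 0.80, SE 0.344, edgeR adjusted p 0.593). With Arhgef1 (1.13, SE 0.489, edgeR adjusted p 0.596) and Gna13 (-0.47, SE 0.368, edgeR adjusted p 0.732), 4 of the 23 genes had no overlap between the arteries, where 14.1% of all genes had none. Arhgef1 had 181, 153 and 462 CPM in PAC replicates 1, 2 and 4, against 103, 136 and 128 CPM in MAC. The part of the lymphocytes of PAC replicate 4 in its fold change was not tested. Ppp1r14a, the myosin phosphatase inhibitor that protein kinase C acts on, overlapped at -1.60 (SE 0.693, edgeR adjusted p 0.595). In MAH over MAC, Gna11, Ppp1r14a and Plcb4 had 0.25, -0.56 and 0.31, each with an adjusted p of 1.00.

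Among the desensitisation genes the medians were -0.13 for MAH and -0.24 for PAC. Rgs2, which speeds the switching off of Gq, had 204, 131 and 61.8 CPM in PAC, against 334, 152 and 660 CPM in MAC (log2 fold change -1.53, SE 0.646, edgeR adjusted p 0.589). Arrb2, an arrestin, had 20.7, 16.2 and 71.9 CPM in PAC, against 13.9, 17.0 and 16.3 CPM in MAC (log2 fold change 1.23, SE 0.602, edgeR adjusted p 0.609). Grk2, a receptor kinase, had 42.1, 57.9 and 210 CPM in PAC, against 39.5, 42.0 and 58.4 CPM in MAC (log2 fold change 1.17, SE 0.636, edgeR adjusted p 0.637). Arrb2 and Grk2 were highest in PAC replicate 4, the library with the lymphocyte sum of 1500 CPM, whose part in these values was not tested. In MAH over MAC, Arrb2, Grk2 and Rgs5 had -0.29, 0.20 and 0.64, each with an adjusted p of 1.00.

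For each receptor the 3 genes with the most similar pattern over the 9 libraries were taken from 11234 genes with a symbol and a mean log2 CPM of at least 1. The measure was the root mean square difference of centred log2 levels, which is small also where the member itself varies little. Nearest to Htr2a were Phldb2 (0.493), Cttnbp2 (0.501) and Cacna1h (0.551), where the SD of Htr2a over the libraries was 1.70. Cacna1h, which encodes a T-type calcium channel, averaged 119 CPM in MAH, 15.6 CPM in PAC and 89.5 CPM in MAC. Phldb2 averaged 240 CPM in MAH, 26.5 CPM in PAC and 197 CPM in MAC. Nearest to Htr2b were Kank3 (0.613), Dach1 (0.614) and Chp2 (0.636), with an SD of 1.21 for Htr2b. Nearest to Htr1b were Ppara (0.669), Postn (0.723) and Enpp2 (0.754), with an SD of 1.33 for Htr1b. Tbxa2r was nearest to Plekhn1 (0.260), Ankrd9 (0.301) and Ttc27 (0.305), and P2ry6 to Zfp438 (0.302), Prkcd (0.314) and Ankrd9 (0.314), so both shared Ankrd9. F2r was nearest to Soat1 (0.183), Rgl1 (0.193) and Ssh1 (0.210), with an SD of 0.489 for F2r. All points share their libraries and scaling, and the likeness is a description.

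Marker levels were set beside the receptor results. Htr2a was lowest in PAC replicate 4, which was lowest for all 12 smooth muscle genes, and it stood at 2.73 and 2.58 CPM in PAC replicates 1 and 2, with smooth muscle sums of 24635 and 26371 CPM, against 3.87 CPM in MAC replicate 2, with a sum of 14463 CPM. With the smooth muscle score as a covariate, the Htr2a log2 fold change of PAC over MAC was -2.13, as given above. The part of smooth muscle content in the Htr2a difference was not itself tested. Endothelial sums, led by Pecam1, were 1681 to 4267 CPM in MAH, 728 to 2215 CPM in PAC and 1539 to 3445 CPM in MAC. Platelets carry Tbxa2r, and their markers summed to 17.7 to 34.2 CPM in MAH, 22.0 to 76.1 CPM in PAC and 18.0 to 147 CPM in MAC, over 7 of 8 listed genes with Gp1bb at 0 in every library. The library with the most platelet markers, MAC replicate 2, had the lowest Tbxa2r level, 3.10 CPM. Macrophages carry P2ry6, and their 9 markers, led by Cd68, summed to 284 to 494 CPM in MAH, 334 to 437 CPM in PAC and 214 to 494 CPM in MAC. The macrophage sum of MAC replicate 2, where P2ry6 was lowest, was the 494 CPM at the top of that range. The 7 fibroblast markers, led by Pdgfra, summed to 5568 to 7558 CPM in MAH, 1477 to 7379 CPM in PAC and 7050 to 13171 CPM in MAC, and F2r was highest in MAC replicate 2 and lowest in PAC replicate 4, at the ends of the fibroblast range. The parts of platelets in the Tbxa2r level, of macrophages in the P2ry6 level and of fibroblasts in the F2r level were not tested.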

How the data were processed

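The authors deposited a table of raw read counts (whole numbers) by gene and library, without any normalization, on build rn7 per the submitters' processing notes. Per the labels, poly(A) RNA was taken with oligo(dT) beads and the second strand was marked. No aligner, counter, annotation or strand setting is given in the sources used here, so reads shared with gene copies or antisense transcripts cannot be told apart. Pulmonary artery of offspring of sucrose dams and PAC replicate 3 were not analysed here.

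Each comparison was fitted on its 6 libraries over all genes with edgeR 4.0.16 in R 4.3.3 (TMM factors, filterByExpr, robust quasi-likelihood F test, Benjamini-Hochberg adjustment over all genes tested). The threshold for passing was an adjusted p of 0.05. CPM use totals scaled by TMM over all 9 libraries, and log2 CPM a prior count of 2. Shares and relative levels were compared by 2-sided exact permutation tests. Floors and the intervals of shares and summed count ratios cover counting error only. The intervals of log2 fold changes come from the fit and include the spread between libraries.

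The receptor genes, pathway lists and marker lists were chosen with earlier results of these data known. The genes named are the 6 receptors, genes of a pathway list that passed or had 1 of the 3 smallest p, marker genes heading their lists, and the 3 genes most like each receptor. Values of 1 gene that the rule names are not reported here. Htr7, Htr1a, Htr5a, Arhgef1, Gna13, Thbd and Actc1 were chosen after values or sequences were seen. The same holds for the scale of Acta2 alone, the group of genes in the closing section, the count ratios and the promoter motifs. Nothing says that libraries come from separate animals, so p-values measure the spread between libraries, which may be technical. Alternatives used DESeq2 1.42.0, limma-voom (limma 3.58.1), other scalings, filters, sample sets and covariates.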

Additional observations from a re-analysis of the deposited data

How the results depend on the processing

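The count of genes that passed between MAH and MAC was 0 in the fit reported and 3 with DESeq2, and 0 to 0 with single libraries left out. Between PAC and MAC it was 2, against 38 with all 9 libraries in 1 fit, 19 with the smooth muscle score as a covariate, 0 with PAC replicate 1 as the only pulmonary library, 462 with DESeq2 and 33 with limma-voom, and 0 to 22 with single libraries left out, 22 without PAC replicate 4. With the replicate block it was 36. Same-numbered libraries had correlations of 0.207, -0.292 and 0.125 (MAH with MAC) and 0.173 and -0.169 (PAC with MAC). With so few libraries, these values cannot tell whether the numbers pair the samples. Under the replicate block, Htr2a had -1.63 in PAC over MAC (adjusted p 0.546) and a sign turned to 0.12 in MAH over MAC. F2r turned to 0.070 (block), 0.15 (covariate) and 0.23 (limma-voom) in MAH, to 0.29 (block), 0.22 (PAC replicate 1 only) and 0.37 (limma-voom) in PAC, and to 0.14 in MAH relative to Myh11. Median-ratio, upper-quartile and plain totals reversed no member.

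With single libraries left out, log2 fold changes of MAH over MAC ran from -0.66 to 0.57 for Htr2a, -0.34 to 0.57 for Htr2b, -0.69 to 0.18 for Tbxa2r, -0.19 to 0.76 for P2ry6 and -0.28 to 0.42 for F2r. Those of PAC over MAC ran from -0.29 to 0.57 for Tbxa2r and -0.33 to 0.37 for F2r. Share differences, in percentage points, of MAH minus MAC ran from -8.26 to 3.98 for Htr2a, -2.14 to 2.62 for Htr2b, -5.20 to 1.05 for Tbxa2r, -2.48 to 5.18 for P2ry6 and -8.72 to 12.5 for F2r, and those of PAC minus MAC from -1.10 to 5.16 for Tbxa2r and -1.09 to 20.1 for F2r. Relative to smooth muscle, MAH minus MAC ran from -0.20 to 0.59 for Htr2a, -0.61 to 1.66 for Htr2b and -0.70 to 0.82 for F2r, and PAC minus MAC from -1.06 to 1.21 for Htr2b. The cause of these shifts was not tested. Depth limits Htr1b, at 0 to 41 counts per library.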

Other observations

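Genes near these receptors that stood out in a single library were read as values. P2ry10, a receptor of lymphocytes, had 2.24, 1.43 and 78.4 CPM in PAC replicates 1, 2 and 4, against 2.15, 5.51 and 15.8 CPM in MAC replicates 1, 2 and 3 and 1.33 to 7.26 CPM in MAH. Ptger2, a receptor for prostaglandin E, had 0.745, 0.358 and 4.00 CPM in PAC, against 0.202, 0.0861 and 0.187 CPM in MAC. Both were highest in PAC replicate 4, where Cd3e, a T cell gene, stood at 86.6 CPM, against 3.89 and 0.788 CPM in PAC replicates 1 and 2. None of the 6 receptor genes had its highest level in PAC replicate 4. That library was the lowest of its group for Htr2a, Htr1b, Tbxa2r, P2ry6 and F2r.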
